A study of Mus musculus with 6 samples.

Results

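The extracellular matrix and the proteases that cut it were examined in the small intestine of mice without Cftr, the epithelial chloride and bicarbonate channel that is defective in cystic fibrosis. Members were taken by gene symbol: collagens, laminins, nidogens, fibulins, fibrillins, elastin, fibronectin, Sparc and Sparcl1, decorin, biglycan, lumican, lysyl oxidases, thrombospondins, tenascin C, matrix metalloproteases other than Mmp7, and their Timp inhibitors. The rule found 103 probe sets of the 12422 on the array that are not control probe sets, and these stood for 72 of the 8251 genes named. Of the 103, 26 have names with a letter before the ending, which can mark cross-hybridization.

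The groups were 3 Cftr null mice, CFTR(-/-), and 3 Cftr control mice, CFTR(+/+), congenic on the black6 background and aged 40 days. All 6 had received Peptamen, a liquid diet, from the age of 10 days. Each group held 2 males and 1 female, null replicate 2 and control replicate 3 being the females, and each array carried RNA of a single animal. The allele behind the null genotype is not described in the labels. The RNA came from the whole organ, so that fewer cells of a type and less RNA per cell cannot be told apart.

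Values were 1-colour array intensities in arbitrary units, scaled to trimmed means between 499.4 and 499.9, and the number of mice limits their precision. Cftr itself, read by its brightest probe set, was at 330.0 ± 36.6 in null and 940.4 ± 120.4 in control mice (SD, n = 3 each). Gut epithelium was present throughout: the summed level of 10 epithelial markers lay between 74760 and 80130 in null mice, against 63540 and 87720 in control mice.

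The intestinal matrix has layers. Fibrillar collagens give the submucosa and the lamina propria their strength, and a basement membrane of type IV collagen, laminins and nidogens lies under the epithelium, where anchoring fibrils tie it down. Elastic fibres let the wall recoil, small leucine-rich proteoglycans set the width of collagen fibrils, and matricellular proteins tune how cells hold on. Matrix metalloproteases cut these proteins and Timp proteins hold the proteases in check. Most of the genes are expressed by fibroblasts and smooth muscle cells, and some laminin chains by the epithelium.

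In null mice 1 of 45 matrix genes tested rose, the fibrillar collagen gene Col5a2, and 1 fell, the fibulin gene Fbln1. A probe set was tested if it exceeded an intensity of 109.7 on at least 3 of the 6 arrays, and it passed if its adjusted p from limma was under 0.05. On these terms 59 of the 103 probe sets were tested, 1 was higher in null mice (1.69%) and 3 were lower (5.08%), the 3 all being of Fbln1. Over all 7601 probe sets tested the shares were 1.13% higher and 1.87% lower, so that the rise is near the background share, and the falls are those of a single gene. At an unadjusted p under 0.05, 12 matrix probe sets were higher and 6 lower (20.3% and 10.2%), against 9.1% and 8.17% of all probe sets. All 3 null mice lay above all 3 control mice in 16 matrix probe sets (27.1%, against 13.1% of all) and below them in 7 (11.9%, against 10.8%).

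With each gene represented by its brightest tested probe set, 30 of the 45 matrix genes (66.7%) lay above 0 in their log2 change and 15 lay below it, where 53.9% of all 5717 genes tested were above 0. The median log2 change was 0.12 over the matrix genes and 0.03 over all genes. Changes are differences of log2(intensity + 12), null minus control. The matrix median was 0.049 when null replicate 3 was left out. Taken per mouse, as log2 values minus the control mean of each gene, the groups overlapped. The medians over the 45 genes were 0.15, 0.05 and 0.15 in null replicates 1 to 3. In control replicates 1 to 3 they were 0.02, 0.08 and -0.06.

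**Figure D1:**
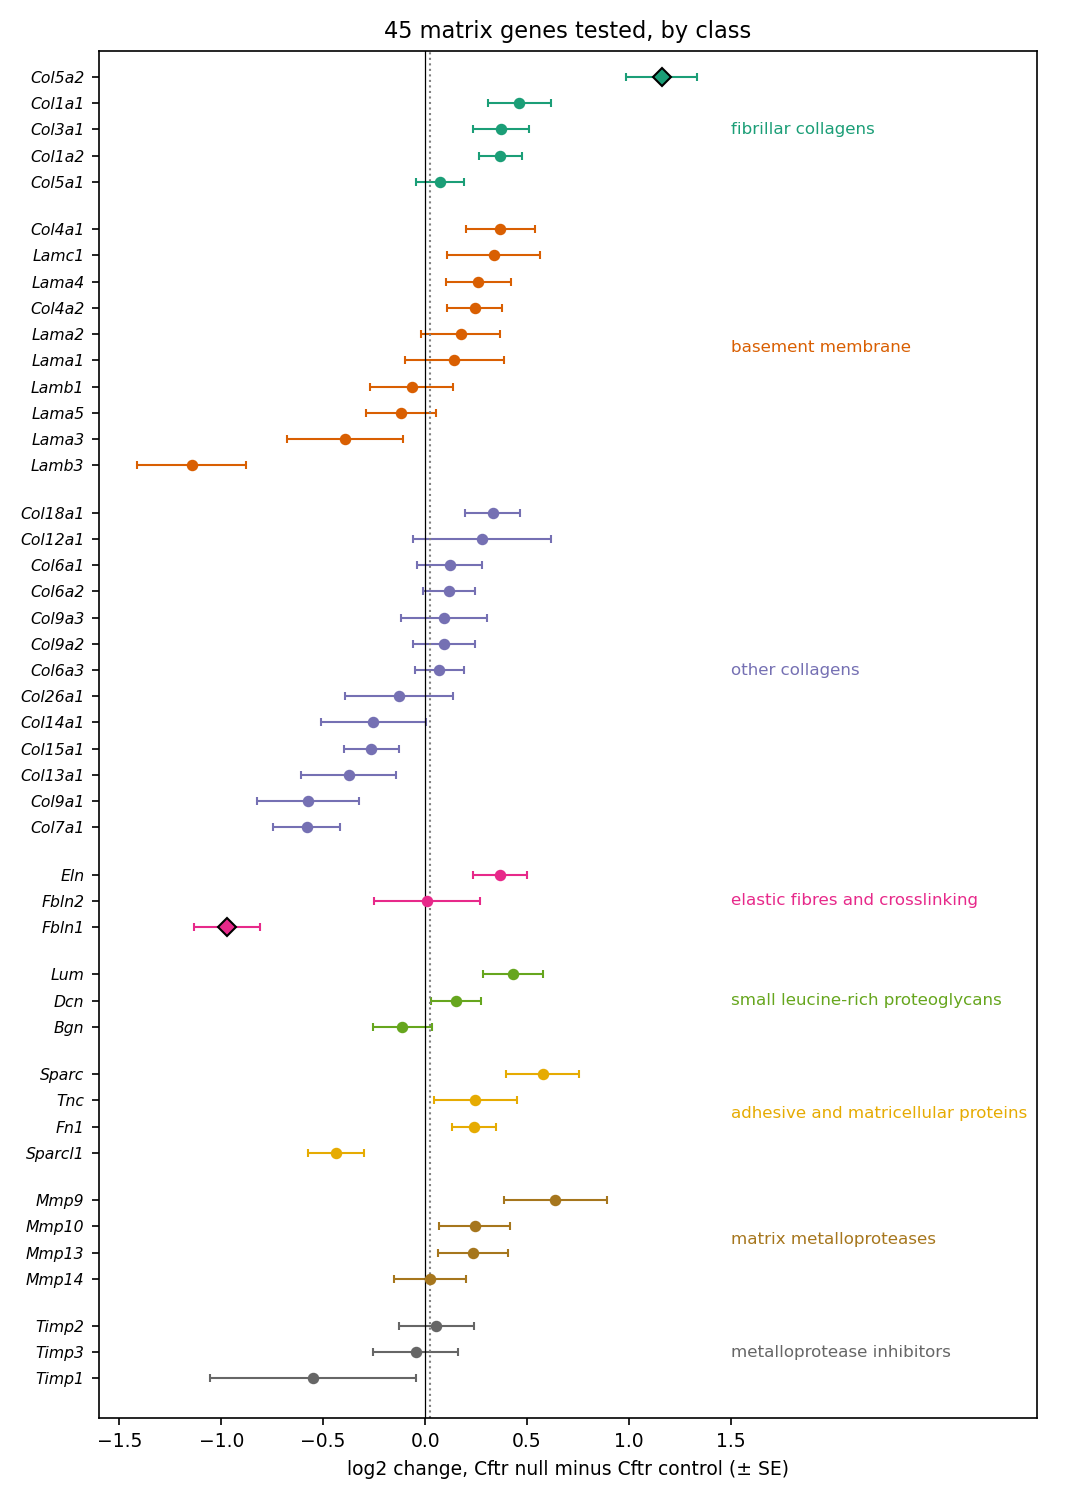
Log2 change of intensity, Cftr null minus Cftr control, with its standard error, for the brightest tested probe set of each of 45 matrix genes, grouped by class (3 mice a group). Diamonds with a black edge mark the genes past the threshold, Col5a2 at 1.16 and Fbln1 at -0.97; the dotted line is the median of all genes tested, 0.03.

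Col5a2 encodes a chain of type V collagen, which starts fibrils of collagen I and limits their width. Its single probe set read 782.7, 683.4 and 891.7 in null replicates 1 to 3, against 391.2, 375.3 and 274.0 in control replicates 1 to 3. The lowest null mouse, the female, was well above the highest control mouse, and the lowest of all was the control female. The means were 785.9 ± 104 and 346.8 ± 63.6 (SD, n = 3 each), 2.24-fold higher in null mice (log2 change 1.16, SE 0.17, limma adjusted p = 0.0151). Col5a2 no longer passed with null replicate 1 left out (adjusted p = 0.0775), nor with null replicate 3 left out (0.0597), while the log2 change stayed between 1.01 and 1.26 over the 18 alternatives.

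**Figure D2:**
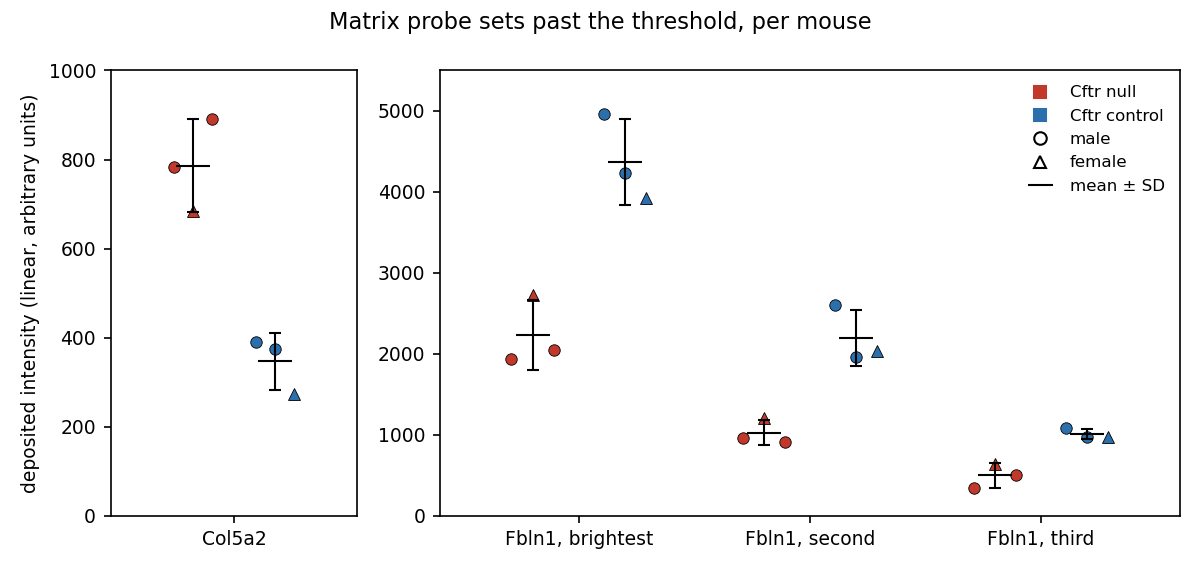
Deposited intensity in each mouse (linear axis, arbitrary units; circles, males; triangles, females; bars, mean ± SD, n = 3) for Col5a2 on the left and for the 3 tested Fbln1 probe sets on the right, null before control. The 3 null mice lie above the control mice for Col5a2 and below them for each Fbln1 probe set.

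The other fibrillar collagen genes had smaller positive changes and did not pass. Col1a1 and Col1a2 encode the chains of type I collagen, the main fibre of the gut wall, and Col3a1 that of type III collagen, found with it in distensible tissue. Col1a1 read 2639, 2242 and 2615 in null mice, against 2058, 1954 and 1463 in control mice (log2 change 0.46, unadjusted p = 0.0182, adjusted p = 0.178). A second Col1a1 probe set overlapped between the groups, at 1542 ± 177 in null and 1391 ± 144 in control mice (SD, n = 3 each).

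Both Col1a2 probe sets separated the groups. The brighter read 1849, 1994 and 2100 in null mice, against 1577, 1502 and 1508 in control mice (log2 change 0.37, adjusted p = 0.124). The other had a log2 change of 0.54 (adjusted p = 0.124). Col3a1 read 2380, 2252 and 1805 in null mice, against 1746, 1688 and 1505 in control mice by its brightest probe set (log2 change 0.37, adjusted p = 0.223), and its other 2 had log2 changes of 0.38 and 0.67. All 3 null mice were above the control mice in the brightest and the dimmest of the 3 Col3a1 probe sets. In all, 5 of 5 fibrillar collagen genes tested were above 0, with a median of 0.37, and in 4 of the 5 the groups did not overlap. Of all 5717 genes tested, 53.9% were above 0, and 755 were higher in null mice without overlap.

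Type V collagen is usually built from Col5a2 together with Col5a1 chains, and Col5a1 did not pass. Its brighter probe set was at 879.4 ± 61.9 in null and 835.3 ± 53.3 in control mice (SD, n = 3 each), with overlapping groups and a log2 change of 0.07. Its dimmer one separated the groups, at a log2 change of 0.28 (adjusted p = 0.487). The change of Col5a2 exceeded that of Col5a1 by 1.09 on the log2 scale (two-sided exact permutation test over the 6 mice, p = 0.1, the smallest that 3 against 3 mice allow; adjusted p = 0.4 over 4 such pairs). The changes of Col1a1 and Col1a2 differed by 0.09 (two-sided exact permutation p = 0.7). In the RefSeq gene order Col5a2 lies next to Col3a1 on chromosome 1. The other fibrillar genes, Col2a1, Col11a1 and Col11a2, which belong mainly to cartilage, were too dim to be tested.

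**Figure D3:**
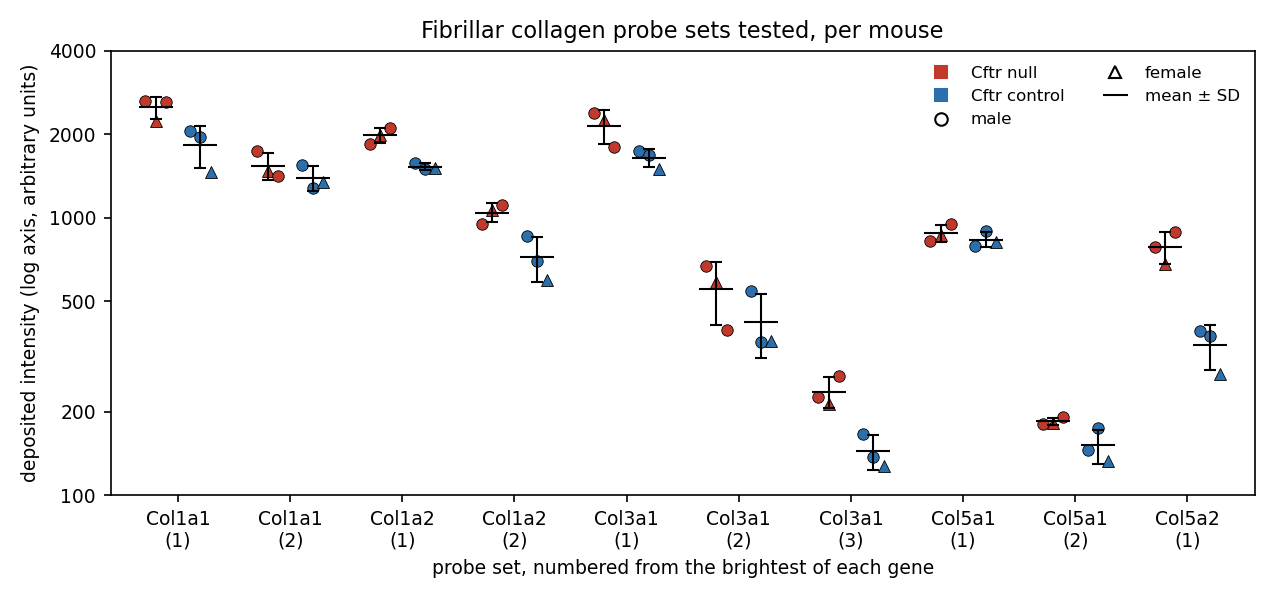
Intensity in each mouse (log axis, arbitrary units; circles, males; triangles, females; bars, mean ± SD, n = 3) for the 10 tested probe sets of fibrillar collagen genes, null before control, numbered from the brightest of each gene. The gap between the groups is widest for Col5a2, and the groups overlap for Col5a1 (1), Col1a1 (2) and Col3a1 (2).

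Smooth muscle cells also make fibrillar collagen, and 1 of their markers rose in the null mice. Of 10 smooth muscle markers listed 8 were tested, and 7 of them lay above 0, with a median log2 change of 0.35, and only Actg2, the gamma actin of gut muscle, passed (log2 change 1.35, adjusted p = 0.0151). Cnn1, Tagln and Des were also higher in null mice without overlap, at log2 changes of 0.90, 0.61 and 0.18. None of these passed (limma adjusted p = 0.0556, 0.182 and 0.514). Of all 5717 genes tested 65 rose, 53.9% lay above 0, and 755 were higher in null mice without overlap. Acta2, Myh11, Myl9 and Smtn overlapped between the groups, Smtn with a log2 change of -0.06. Actg2, too, did not pass with null replicate 1 (adjusted p = 0.0775) or null replicate 3 (0.0576) left out. The probe sets of Actg2 and Cnn1 have names with a letter before the ending, which can mark cross-hybridization. The summed level of the 8 was between 16860 and 21380 in null mice, against 9534 and 14320 in control mice, without overlap, and none of the 8 was at 0. Actg2 was the largest term of that sum in each null mouse, at 7434, 6036 and 8583. The 4 fibroblast markers tested overlapped in sum, at 1654 to 1986 in null and 1448 to 1777 in control mice, and none was at 0. Pdgfra made up most of that sum, for example 1567 in null replicate 1. Of the 4, 3 had log2 changes above 0, with a median of 0.08, and none passed. Vim was higher in null mice without overlap, at values near the filter level (log2 change 0.67, limma adjusted p = 0.374). The other 4 of the fibroblast list, Pdgfrb, Thy1, Fap and Gli1, were too dim to be tested. The part of smooth muscle or fibroblast content in the collagen values was not tested.

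The promoters of Col1a2 and Col3a1 are shown as examples of fibrillar genes whose groups did not overlap by the brightest probe set. The promoter sequences used held no window for Col5a2 or Col1a1. Bases just before the RefSeq start (GRCm38.p6, plus strand) are given 5′ to 3′, for Col1a2 at chr6:4505498-4505617 with the CCAAT box in capitals, and for Col3a1 at chr1:45311418-45311537 with TATAAA in capitals.
Col1a2: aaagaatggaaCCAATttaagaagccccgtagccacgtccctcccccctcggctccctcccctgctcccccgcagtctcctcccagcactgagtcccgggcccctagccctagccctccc
Col3a1: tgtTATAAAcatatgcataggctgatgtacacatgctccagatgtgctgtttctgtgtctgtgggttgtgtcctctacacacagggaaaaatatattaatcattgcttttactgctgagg

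The motifs begin 109 and 117 bases before those starts. In windows of 250 bases before to 50 after a start, on both strands, CCAAT was found in 17 of 53 windows of matrix genes (32.1%) and in 37.4% of all 32851 windows. TATAAA was found in 24.5% of the matrix windows and 13.6% of all, and GGGCGG, the letters of a GC box, in 54.7% and 35.7%. Windows were found for 46 of the 72 genes. These matches describe letters, not bound sites.

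No basement membrane gene passed. The type IV collagen genes Col4a1 and Col4a2, neighbours on chromosome 8 whose products form the network of most basement membranes, had positive log2 changes. Col4a1 was at 2475 ± 304 in null and 1932 ± 388 in control mice (SD, n = 3 each; log2 change 0.37, adjusted p = 0.318). Col4a2 was at 1392 ± 70.0 and 1180 ± 165 (log2 change 0.24, adjusted p = 0.407), with the lowest null mouse just above the highest control mouse. Neither passed, and the changes differed by 0.12 (two-sided exact permutation p = 0.8).

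Lamb3 encodes the beta chain of the laminin that epithelial cells lay down to fasten themselves, and its log2 change was the lowest of the 45 matrix genes. It read 175.9, 133.5 and 300.8 in null mice, against 424.5, 479.1 and 419.7 in control mice. The groups did not overlap, but null replicate 3 stood above the other nulls. The log2 change was -1.15 (SE 0.27, unadjusted p = 0.00272), and Lamb3 did not pass (adjusted p = 0.0694). It passed without null replicate 3 (adjusted p = 0.0213), and in none of the other 17 alternatives.

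Lama3, the alpha chain of the same laminin, overlapped between the groups, at 217.7 ± 17.6 in null and 305.7 ± 118.4 in control mice (SD, n = 3 each; log2 change -0.39, adjusted p = 0.532). The difference of the Lamb3 and Lama3 changes was -0.75 (two-sided exact permutation p = 0.2, adjusted p = 0.4). Col7a1 encodes the collagen of the anchoring fibrils that bind this laminin. It read 158.1, 182.9 and 177.4 in null mice, against 257.8, 301.9 and 236.4 in control mice, without overlap (log2 change -0.58, unadjusted p = 0.00776, adjusted p = 0.118). Col17a1, a hemidesmosome collagen of the same junction, was too dim to be tested. The other laminin genes tested, Lama1, Lama2, Lama4, Lama5, Lamb1 and Lamc1, had log2 changes between -0.12 and 0.34, and none passed. A second Lamb1 probe set was at -0.41. Of the 16 basement membrane genes on the array 10 were tested, with a median of 0.16. Lamb2, Nid1, Nid2 and the type IV chains Col4a3, Col4a4 and Col4a5 were too dim.

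**Figure D4:**
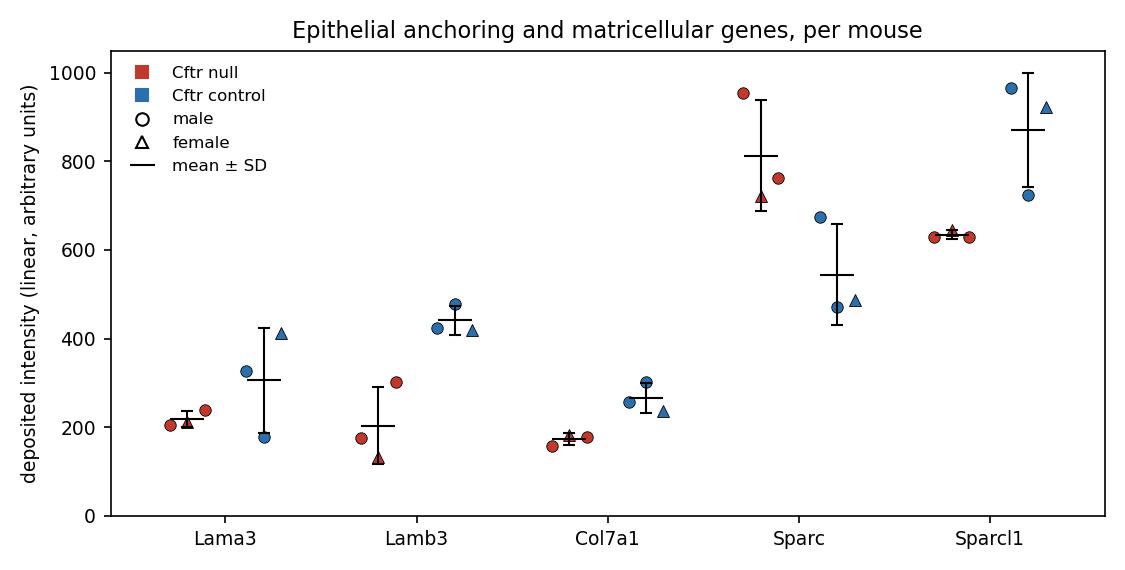
Intensity in each mouse (linear axis, arbitrary units; circles, males; triangles, females; bars, mean ± SD, n = 3) for genes of epithelial anchoring (Lama3, Lamb3, Col7a1) and the matricellular genes Sparc and Sparcl1, null before control. The groups do not overlap except for Lama3, and null lies above control for Sparc alone.

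Fbln1 encodes fibulin-1, a secreted glycoprotein found in basement membranes and elastic fibres, where it binds fibronectin, laminin and nidogen. It fell in null mice by each of its 3 tested probe sets. The brightest read 1932, 2731 and 2048 in null mice, against 4960, 4236 and 3923 in control mice. All 3 nulls lay below all controls, the null female being the highest of the nulls and the control female the lowest of the controls. The fall was 1.96-fold (log2 change -0.97, SE 0.16, limma adjusted p = 0.0217).

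The second Fbln1 probe set was at 1026 ± 159 in null and 2196 ± 350 in control mice (SD, n = 3 each; log2 change -1.09, adjusted p = 0.0151). The third was at 496.5 ± 152.9 and 1008 ± 60.9 (log2 change -1.05, adjusted p = 0.0483). The 3 were similar in size, at 1.96-fold to 2.13-fold lower. The brightest and the second share a source transcript by their annotation, so they are not independent readings. The fourth, below 33 on every array, was not tested. The brightest did not pass with control replicate 1 left out (adjusted p = 0.0922), nor with null replicate 1 (0.0977) or null replicate 3 (0.0838) left out. Its log2 change stayed between -1.20 and -0.88 over the 18 alternatives. Only 2 matrix probe sets, not 3, were called lower without the filter, without a variance trend or with a pseudocount of 3. The same held with sex in the model and in males alone.

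The bases before the upstream RefSeq start of Fbln1 are shown because this gene fell in every tested probe set (GRCm38.p6, chr15:85205829-85205948, plus strand, 5′ to 3′). None of the motifs named for the other promoters lies in this stretch, so nothing is in capitals. The window of another Fbln1 start, not shown, held GGGCGG, with a match beginning 11 bases before that start.
Fbln1: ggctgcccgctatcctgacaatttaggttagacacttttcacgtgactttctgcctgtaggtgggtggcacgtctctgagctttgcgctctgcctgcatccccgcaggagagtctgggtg

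No other elastic fibre gene passed. Eln, elastin itself, read 777.1, 712.9 and 667.0 in null mice, against 529.5, 511.5 and 626.2 in control mice, without overlap (log2 change 0.37, unadjusted p = 0.0231, adjusted p = 0.201). Fbln2, another fibulin, was at 152.7 ± 41.0 in null and 149.7 ± 29.2 in control mice (SD, n = 3 each; log2 change 0.01). The lysyl oxidase genes Lox and Loxl1, whose enzymes crosslink collagen and elastin, and the fibrillin gene Fbn2 were too dim to be tested. Loxl1 came nearest, at 128.5, 141.1 and 101.9 in null mice, against 70.1, 100.3 and 42.2 in control mice.

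Collagens that are neither fibrillar nor type IV showed no common direction, with 7 of 13 genes above 0 and a median log2 change of 0.07, and that median was between -0.03 and 0.01 with any 1 mouse left out, the lowest being without null replicate 1. Col18a1, the heparan sulfate collagen that is the source of endostatin, read 1034, 1112 and 1358 in null mice, against 868.4, 947.5 and 944.8 in control mice by its brightest probe set. The groups did not overlap (log2 change 0.33, unadjusted p = 0.0391, adjusted p = 0.256), and its other 3 tested probe sets were also above 0, at log2 changes of 0.25 to 0.96. Col6a1, Col6a2 and Col6a3, the chains of the beaded microfibrils of type VI collagen, had log2 changes of 0.12, 0.12 and 0.07, with overlapping groups. Col6a1, for example, was at 1965 ± 131 in null and 1828 ± 369 in control mice (SD, n = 3 each). Col15a1, a relative of Col18a1, was lower without overlap, at 259.3 ± 9.26 and 314.6 ± 28.0, and did not pass (adjusted p = 0.369).

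Of the small leucine-rich proteoglycans, lumican (Lum) separated the groups without passing. It read 783.5, 594.7 and 622.6 in null mice, against 510.2, 522.1 and 436.7 in control mice (log2 change 0.43, unadjusted p = 0.0201, adjusted p = 0.188). Its neighbour on chromosome 10, decorin (Dcn), overlapped between the groups, at 3150 ± 155 in null and 2848 ± 331 in control mice (SD, n = 3 each; log2 change 0.15). Biglycan (Bgn) gave opposite signs: its brighter probe set had a log2 change of -0.11 with overlap, and its dimmer one 0.33 without overlap (unadjusted p = 0.044, adjusted p = 0.271). Of 10 matrix genes with several tested probe sets, Bgn was the exception among 9 whose probe sets shared a sign.

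Sparc, a collagen-binding matricellular protein, and its relative Sparcl1 had changes of opposite sign. Sparc read 955.4, 721.3 and 762.6 in null mice, against 675.3, 471.1 and 487.4 in control mice (log2 change 0.58, unadjusted p = 0.0126, adjusted p = 0.150). Sparcl1 read 630.2, 645.8 and 629.0 in null mice, against 966.4, 724.0 and 922.6 in control mice (log2 change -0.44, unadjusted p = 0.0136, adjusted p = 0.156). Neither gene overlapped between the groups and neither passed. Fibronectin (Fn1), which links cells to collagen, was at 833.0 ± 44.8 in null and 702.8 ± 15.7 in control mice (SD, n = 3 each), without overlap (log2 change 0.24, adjusted p = 0.312). Tenascin C (Tnc) overlapped, at a log2 change of 0.25, and the thrombospondin genes Thbs2 and Thbs3 were too dim to be tested.

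Of 12 matrix metalloprotease genes on the array, 4 were tested, and none passed. Mmp9 encodes gelatinase B, carried in quantity by neutrophils. It read 586.6, 630.0 and 441.9 in null mice, against 248.6, 494.3 and 338.5 in control mice. Null replicate 3 lay below control replicate 2, so the groups overlapped (log2 change 0.64, SE 0.25, unadjusted p = 0.0354, adjusted p = 0.248). The 3 neutrophil markers tested, Camp, Csf3r and Elane, overlapped in sum, at 1033 to 1347 in null and 807.8 to 1455 in control mice. Csf3r made up most of that sum, for example 1066 in null replicate 1 and 1102 in control replicate 2. The other 5 neutrophil markers were too dim to be tested, and in S100a8, S100a9 and the brighter of 2 Mpo probe sets all null mice lay above the control mice. S100a8, a calprotectin subunit, read 142.0, 99.2 and 70.2 in null mice, against 26.9, 61.3 and 55.9 in control mice. By the tested Mmp9 probe set, replicate 2 was the highest in each group, with the lowest neutrophil sum among the null mice and the highest among the control mice. The part of neutrophils in the Mmp9 values was not tested.

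Mmp14, a membrane-bound collagenase that activates Mmp2, was at 901.2 ± 150.2 in null and 885.5 ± 145.2 in control mice (SD, n = 3 each; log2 change 0.02). Stromelysin-2 (Mmp10) was at 377.6 ± 69.7 and 315.4 ± 41.1 (log2 change 0.24), and collagenase-3 (Mmp13) had a log2 change of 0.24, both with overlap. The gelatinase gene Mmp2, stromelysin-1 (Mmp3), neutrophil collagenase (Mmp8), macrophage elastase (Mmp12) and Mmp11, Mmp16, Mmp17 and Mmp24 were too dim to be tested.

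Mmp3, Mmp10 and Mmp13 lie in a cluster on chromosome 9 and share a motif, TGANTCA, the letters of an AP-1 element, within 80 bases before their RefSeq starts. It was searched with any base as N, so that it reads the same on both strands. The stretches are printed to show that feature, which the rule did not use (GRCm38.p6, plus strand, 5′ to 3′, motif in capitals), from chr9:7445742-7445821 for Mmp3, chr9:7502262-7502341 for Mmp10 and chr9:7272434-7272513 for Mmp13.
Mmp3: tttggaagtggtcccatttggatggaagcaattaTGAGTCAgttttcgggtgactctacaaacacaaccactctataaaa
Mmp10: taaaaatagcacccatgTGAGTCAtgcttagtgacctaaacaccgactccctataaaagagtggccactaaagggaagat
Mmp13: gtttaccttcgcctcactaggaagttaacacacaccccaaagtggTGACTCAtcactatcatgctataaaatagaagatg

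The motif begins 46, 63 and 35 bases before the starts of Mmp3, Mmp10 and Mmp13. It was in 5 of the 53 matrix windows (9.43%), those of Mmp12 and Col6a1 being the others, and in 7.81% of all windows. Of these 5 genes, Mmp10, Mmp13 and Col6a1 were bright enough to be tested, and none passed.

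The inhibitors showed no shared direction. Timp1, which inhibits most metalloproteases and is induced in inflamed tissue, read 747.3, 155.5 and 607.3 in null mice, against 707.6, 612.6 and 538.1 in control mice. Null replicate 2, the null female, was far below the other 5 mice, and its log2 change of -0.55 (adjusted p = 0.629) became 0.13 without this mouse. Timp2 was at 210.1 ± 22.5 in null and 202.7 ± 32.8 in control mice, and Timp3, which stays bound to the matrix, at 484.4 ± 132.4 and 491.8 ± 65.6 (SD, n = 3 each).

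**Figure D5:**
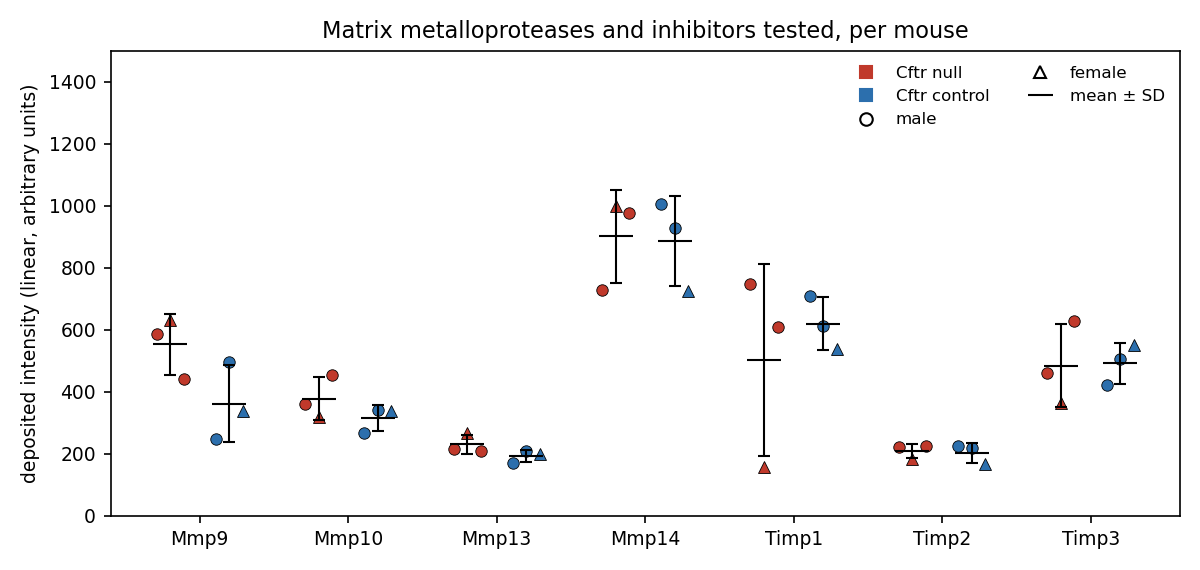
Intensity in each mouse (linear axis, arbitrary units; circles, males; triangles, females; bars, mean ± SD, n = 3) for the tested matrix metalloproteases and their Timp inhibitors, null before control. The groups overlap for every probe set shown, and the null female stands apart for Timp1 at 155.5.

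Genes that act on the matrix but lie outside the rule were counted from lists. Of 8 collagen-processing genes tested 1 fell and none rose, while of all 5717 genes tested 114 fell and 65 rose. The gene of the list that fell was Bmp1, the procollagen C-proteinase that trims fibrillar collagens so that they can assemble. Its brighter probe set read 197.1, 168.5 and 135.8 in null mice, against 338.9, 435.2 and 343.2 in control mice, without overlap. It was 2.15-fold lower (log2 change -1.11, SE 0.19, limma adjusted p = 0.0225).

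A second Bmp1 probe set overlapped, at 245.2 ± 13.9 in null and 268.0 ± 40.2 in control mice (SD, n = 3 each; log2 change -0.11, adjusted p = 0.756), and the mean of both, at a log2 change of -0.61, missed the threshold (adjusted p = 0.0789). The call of the first also ended without any 1 of the 6 mice, at adjusted p-values of 0.0554 to 0.0742, and in males alone (adjusted p = 0.110). None of the other 7 genes of the list passed.

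No member of 4 other lists passed in limma, and 9 of their 57 genes tested were at an unadjusted p under 0.05 (15.8%, against 17.6% of all genes tested), 6 of them higher and 3 lower. Of 18 other proteoglycans and matrix proteins, 13 were above 0 with a median log2 change of 0.13, and the smallest p was that of glypican-3 (Gpc3), at 404.9 ± 25.3 in null and 251.4 ± 32.1 in control mice (SD, n = 3 each; log2 change 0.67, adjusted p = 0.055). Below 0 in the same list, at an unadjusted p under 0.05, were perlecan (Hspg2), the heparan sulfate proteoglycan of basement membranes, at a log2 change of -0.48, and tenascin X (Tnxb) at -0.65. Of 18 other proteases 9 were above 0, with the smallest p for the serine protease Tmprss2, an epithelial enzyme, at 1537 ± 282 and 938.1 ± 56.2 (log2 change 0.69, adjusted p = 0.0641). Of 9 genes with integrin symbols 3 were above 0. The 9 include Itgb1bp1, the gene of an integrin-binding protein, at a log2 change of -0.24. The smallest p was that of Itgb7, the beta chain of the gut-homing integrin of lymphocytes (log2 change 0.50, adjusted p = 0.160). Of 12 genes of the TGF-beta pathway, a main inducer of collagen, 5 were above 0, and the smallest p was that of the signal mediator Smad4 (log2 change 0.36, adjusted p = 0.174).

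Of the markers of other cells, 7 endothelial genes summed to 1873 to 2300 in null mice, against 1940 to 2274 in control mice. The 6 macrophage markers summed to 8788 to 9100 in null mice, against 9636 to 12310 in control mice, without overlap. Among these 6, Lyz2 fell (log2 change -0.82, adjusted p = 0.0437; passing in 8 of 18 alternatives), a lysozyme gene close in sequence to that of Paneth cells, and none of the other 5 passed. Without Lyz2, a sum chosen after its values were seen, the 5 were at 4929 to 5635 in null mice, against 4585 to 4873 in control mice, again without overlap but with null above control. Cd14, an endotoxin receptor subunit, had a log2 change of 0.46 (unadjusted p = 0.00835, adjusted p = 0.122), and the lysosomal protein gene Cd68 one of 0.25, both without overlap. No endothelial or macrophage marker tested was at 0.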

How the data were processed

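The values deposited by the authors are probe set intensity values on a linear scale, for total RNA of 6 mice extracted with TRIzol per the labels. The software and its background and scaling steps are not given in the sources used here. Gene names came from the platform annotation given, and sequences and gene order from RefSeq tables (GRCm38.p6).

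Intensities were analysed as log2(value + 12), where 12 is the 10th percentile of positive values, which understates changes of dim genes. The filter level of 109.7 is the 40th percentile of all values. The groups differ in genotype alone in the fit, a linear model in limma 3.58.1 under R 4.3.3 whose moderated variance follows a trend in intensity. Two-sided p-values were adjusted by Benjamini and Hochberg's method across the 7601 probe sets tested. The script was tested on 20 simulated data sets with 200 changed probe sets each. It recovered 60.2% of the 2-fold and 89.4% of the 4-fold changes, and 4.55% of its calls were false. A gene that did not pass may therefore still have changed. The labels pair no mice, and p-values measure the spread between these 6 animals.

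Members, classes, lists and tests were chosen with earlier results of these data known. The rule named members past the threshold or at an unadjusted p under 0.05, the brightest of a class until it had 3, genes with probe sets of opposite sign of which 1 had an unadjusted p under 0.05, and, from other lists, genes past the threshold or else the smallest p. Others (among them Col5a1, Lama3, Col15a1, Loxl1, Tnc, S100a8, Hspg2, Tnxb, Cd14, Cd68 and the remaining members given a value) were picked with their values in view. The alternatives changed the normalization (quantile, or equal array medians), the pseudocount (3 or 48), the filter (none, or 288.7, the 60th percentile), the variance model (no trend, or robust), the probe sets used (gene means, or no names with a letter before the ending) and the mice (sex added to the model, the 4 males, or each animal dropped).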

Additional observations from a re-analysis of the deposited data

How the results depend on the processing

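Over the 12 alternatives that kept all 6 mice or the males, Col5a2 and Fbln1 kept their calls. In the 11 of them that count probe sets, 1 matrix probe set was higher and 2 to 3 were lower. Dropping 1 mouse gave 0 to 1 higher and 0 to 3 lower. There were 0 higher and 0 lower without null replicate 1, 1 and 0 without control replicate 1, and 0 and 1 without null replicate 3, where the 1 was Lamb3 in place of Fbln1. These fits hold fewer mice. The median log2 change of matrix genes lay between 0.049 and 0.14 without a mouse, lowest without null replicate 3, and between 0.10 and 0.15 otherwise, while that of all genes stayed between 0.01 and 0.03. Over all probe sets, 42 were higher and 79 lower in males only, 49 and 92 without a variance trend, and 11 to 68 and 35 to 116 without a mouse. Class medians changed sign for elastic fibre genes (-0.30 to 0.24), inhibitors (-0.30 to 0.13) and other collagens (-0.03 to 0.10). Gpc3 passed in 3 of 18 alternatives and Tmprss2 in 2. Signal over the filter level limits the account, since 27 of 72 genes were too dim to be tested.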
